A study of Mus musculus with 6 samples.

Results

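The renin-angiotensin genes and the peptidases that cut angiotensin were examined in inguinal fat, a subcutaneous depot, of male C57BL/6J mice. The 7 genes were Agt, Ace, Agtr1a, Enpep, Anpep, Lnpep and Atp6ap2. They were taken as every probe for which the annotation of the array gave a member as its 1 gene symbol. Of the 13840 genes that had such a probe, 6 were members, with 7 probes in all because Atp6ap2 had 2. Lnpep had no probe under its own name and was not analysed here. All mice were of 1 inbred strain, with no transgene or targeted allele named in the labels, and received a diet high in saturated fat for 4 weeks from 8 weeks of age. High gainers were mice that had put on much weight on this diet and low gainers were mice that had put on little, and no array analysed here came from mice kept on a low-fat diet. RNA of 8 high gainers formed 1 pool and RNA of 8 low gainers formed the other, and each pool was measured on 3 one-color arrays. Because all arrays of a pool carried the same RNA, n counts arrays here, and a p-value reflects technical spread, with the variation among mice not measured.

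The renin-angiotensin system is a chain of peptide cleavages. Renin cuts angiotensinogen, the product of Agt, into angiotensin I, and angiotensin-converting enzyme, the product of Ace, cuts that into angiotensin II, which acts on the receptor encoded by Agtr1a. Aminopeptidases then trim the peptide from its amino end. Aminopeptidase A, encoded by Enpep, makes angiotensin III, and aminopeptidase N, encoded by Anpep, shortens it further, whereas the product of Lnpep, an aminopeptidase of insulin-regulated vesicles, binds angiotensin IV. Atp6ap2 encodes the (pro)renin receptor, which is also an accessory protein of the vacuolar proton pump. Adipose tissue is known to make angiotensinogen, and the system is known for its effects on vessel tone, salt balance and adipocyte differentiation.

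The sequences just before the transcription starts of Agt, Ace and Enpep are shown because Agt and Ace had the largest ratios between the pools and Enpep, with an upstream sequence holding some of the same short motifs, had almost none. They are the 100 bases that precede a start in RefSeq on GRCm38.p6, read 5′ to 3′ on the strand of the gene. Capitals mark the TATA motif (TATAA), the CCAAT box and the GC box (GGGCGG), each searched on both strands, so that a match on the other strand appears as its reverse complement and neighboring matches may share bases.
Agt, minus strand, chr8:124569707-124569806: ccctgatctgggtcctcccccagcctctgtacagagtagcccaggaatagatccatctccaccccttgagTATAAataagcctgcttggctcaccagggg
Ace, first start, plus strand, chr11:105967848-105967947: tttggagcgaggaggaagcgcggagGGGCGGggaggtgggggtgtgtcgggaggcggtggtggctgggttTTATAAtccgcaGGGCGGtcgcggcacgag
Ace, second start, plus strand, chr11:105975089-105975188: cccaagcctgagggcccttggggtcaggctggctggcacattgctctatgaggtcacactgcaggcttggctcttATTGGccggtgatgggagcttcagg
Enpep, minus strand, chr3:129332750-129332849: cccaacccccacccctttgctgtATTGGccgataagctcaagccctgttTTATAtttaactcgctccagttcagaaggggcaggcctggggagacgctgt
TATAA, on either strand, stood before Agt, the first start of Ace and Enpep, and it was found in 10.2% of 32851 such windows in the table. CCAAT was found in 18.9% of the windows and stood before the second start of Ace and before Enpep. GGGCGG was found in 24.7%, and the first start of Ace held it at 2 positions. In member windows not printed here, Anpep held GGGCGG at 3 positions and Lnpep at 1. Atp6ap2 held CCAAT at 2 positions and GGGCGG at 1. Ace is known to use separate promoters for its somatic and its testis form, and the annotation of its probe gave 2 transcripts, so that the signal cannot be assigned to a start. Of the 7 members 6 had a window in the table, and Agtr1a had none. A match is only a description of the letters.

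The deposited intensities are linear and were quantile normalized by the authors. Each array held a value for 18018 to 20605 of 33012 probes, and 15821 probes had a value on all 6 arrays. These were log2 transformed and tested with limma, and a probe was called where its Benjamini-Hochberg adjusted p over all tested probes was under 0.01 and its fold change was at least 1.5. Over the tested probes r was 0.988 to 0.994 for arrays within a pool and 0.972 to 0.980 for arrays from both pools. By this r no array stood apart, which does not exclude that an array differed at single probes. The number of arrays limits the precision. In bulk tissue, fewer cells of a type and less RNA per cell cannot be told apart.

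All 7 member probes had a value on every array and none had a blank. For comparison, 61.6% of the probes with 1 symbol had a value on all 6 arrays, and 18.5% were blank on all 6. No member probe was called by limma in either direction. Over all tested probes, 2.50% were called higher in high gainers and 3.99% were called lower. The probes of Agt, Ace and Agtr1a lay higher on every high-gainer array than on every low-gainer array, 3 of 7 against 20.3% of all tested probes. No member probe lay lower on every high-gainer array, against 16.3% of all. The same 3 probes had an unadjusted limma p under 0.05 with the higher signal in high gainers, which 17.4% of all tested probes had, and none had such a p in the other direction, which 13.6% had. The unadjusted test that the methods of the study describe, with its p limit of 0.01 and the same fold limit, selected 1 of the 7 member probes in either direction, that of Agt with the higher signal in high gainers. It selected 7.29% of all tested probes in either direction.

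**Figure D1:**
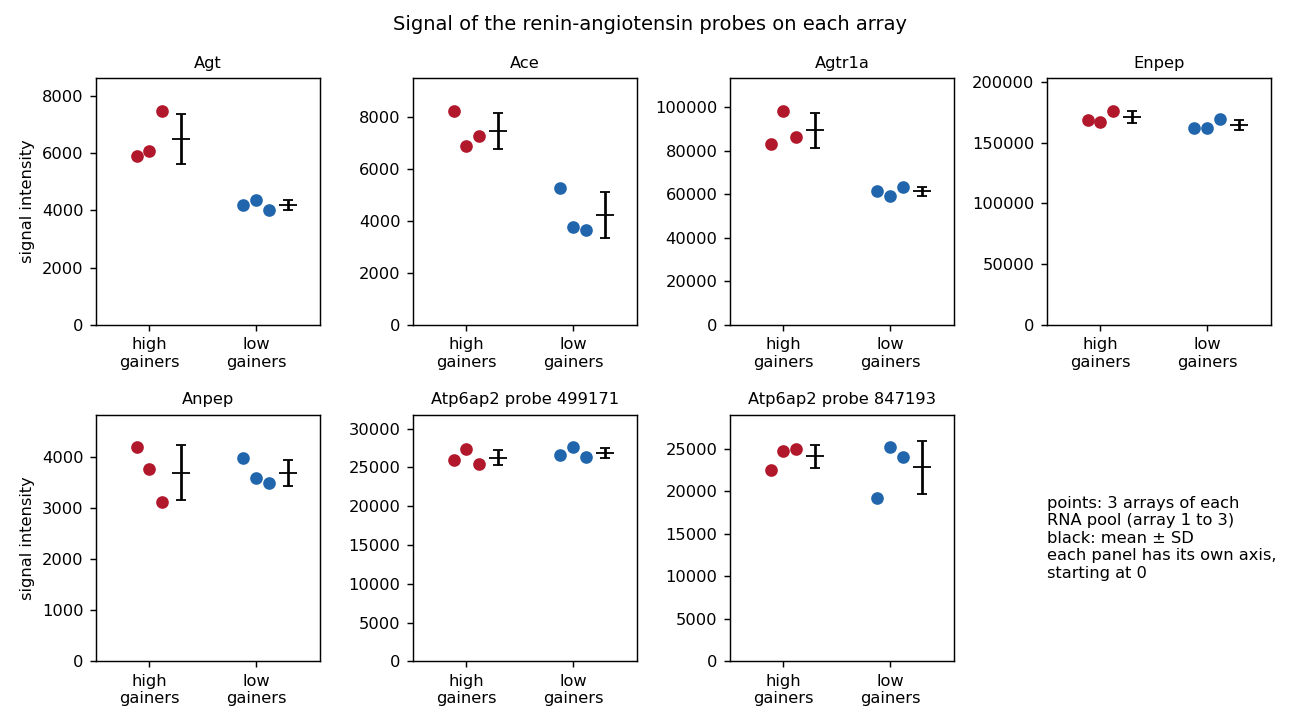
Signal intensity of the 7 member probes on each array, with a panel and a linear axis starting at 0 for each probe. Red points are the 3 high-gainer arrays, blue points the 3 low-gainer arrays, and black marks the mean ± SD. The points of the pools are separate for Agt, Ace and Agtr1a and overlap for Enpep, Anpep and both probes of Atp6ap2.

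Agt encodes the only known precursor of the angiotensins. Its signal was 5912, 6070 and 7497 on the high-gainer arrays and 4189, 4374 and 4000 on the low-gainer arrays. All high-gainer arrays were above all low-gainer arrays, and the third high-gainer array was the highest. High gainers had a mean of 6493 ± 873 (SD, n = 3 arrays) and low gainers a mean of 4188 ± 187 (SD, n = 3 arrays). The log2 ratio was 0.63 with a standard error of 0.12, or 1.54-fold with a 95% interval of 1.27 to 1.87. Its adjusted p from limma was 0.0124, above the limit of 0.01, although the fold limit was met. The unadjusted test of the methods gave a p of 0.00549, under its own limit. The probe is dim, which here means a mean in the lowest 33.3% of the tested probes.

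Ace encodes the enzyme that forms angiotensin II and also breaks down bradykinin. Its signal was 8244, 6870 and 7251 on the high-gainer arrays and 5253, 3743 and 3661 on the low-gainer arrays. The pools did not overlap, but the first low-gainer array stood above the other two of its pool. The mean signal was 7455 ± 709 (SD, n = 3 arrays) against 4219 ± 896 (SD, n = 3 arrays). This was the largest ratio among the members, with a log2 ratio of 0.84, a standard error of 0.16 and a fold change of 1.79 (95% interval 1.38 to 2.32). The adjusted p from limma was 0.0127. Without low gainers replicate 1 the log2 ratio was 1.01 and the probe was called, with an adjusted p of 0.00440 from limma. Ace is also a dim probe, and its coefficient of variation was 21.2% over the low-gainer arrays, where the median of the dim probes was 15.5%. Agt and Ace were among the genes that the study singled out from these same arrays, so that their values are not independent of that selection.

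Agtr1a encodes the main receptor through which angiotensin II acts on vessels in rodents. Its signal was 83169, 98408 and 86283 on the high-gainer arrays and 61567, 59149 and 63240 on the low-gainer arrays. The pools did not overlap, and the spread was wider among the high-gainer arrays, mainly through the second one. High gainers averaged 89287 ± 8051 (SD, n = 3 arrays), and low gainers averaged 61319 ± 2057 (SD, n = 3 arrays). The log2 ratio was 0.54 with a standard error of 0.10, and the fold change of 1.45 (95% interval 1.23 to 1.71) was below the fold limit. The adjusted p from limma was 0.0121. Without the dim probes in the test the adjusted p from limma was 0.00383, but the fold change was the same and the probe was not called.

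The arrays of the pools overlapped at both measured aminopeptidases that trim angiotensin. Enpep, for aminopeptidase A, had a signal of 169130, 167383 and 176543 on the high-gainer arrays and of 162153, 161760 and 169224 on the low-gainer arrays. The third low-gainer array was slightly above the first and second high-gainer arrays, so that the pools overlapped. The log2 ratio was 0.057 with a standard error of 0.087, or 1.04-fold with a 95% interval of 0.904 to 1.20, and the adjusted p from limma was 0.711. Enpep varied little between arrays, with a coefficient of variation of 2.84% in high gainers and 2.56% in low gainers, where the medians over all tested probes were 9.12% and 10.4%.

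Anpep, for aminopeptidase N, had a signal of 4194, 3776 and 3125 on the high-gainer arrays and of 3979, 3592 and 3490 on the low-gainer arrays. Both the highest and the lowest of these 6 values came from the high-gainer pool. The fold change was 0.997 with a 95% interval of 0.807 to 1.23, and the adjusted p from limma was 0.989. The interval excludes a ratio of 1.5 in either direction for this dim probe, and the same holds for Enpep.

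Both probes of Atp6ap2, the (pro)renin receptor, gave overlapping pools. Probe 499171 had a signal of 25953, 27403 and 25439 on the high-gainer arrays and of 26559, 27587 and 26349 on the low-gainer arrays. Probe 847193 had a signal of 22514, 24768 and 24972 against 19248, 25159 and 23956, where the first low-gainer array was the lowest of the 6. The log2 ratio was -0.031 (standard error 0.088) at the first probe and 0.088 (standard error 0.13) at the second. They differ in sign, but both 95% intervals of the fold change include 1, with 0.848 to 1.13 at the first and 0.866 to 1.30 at the second. The adjusted p values from limma were 0.852 and 0.691.

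**Figure D2:**
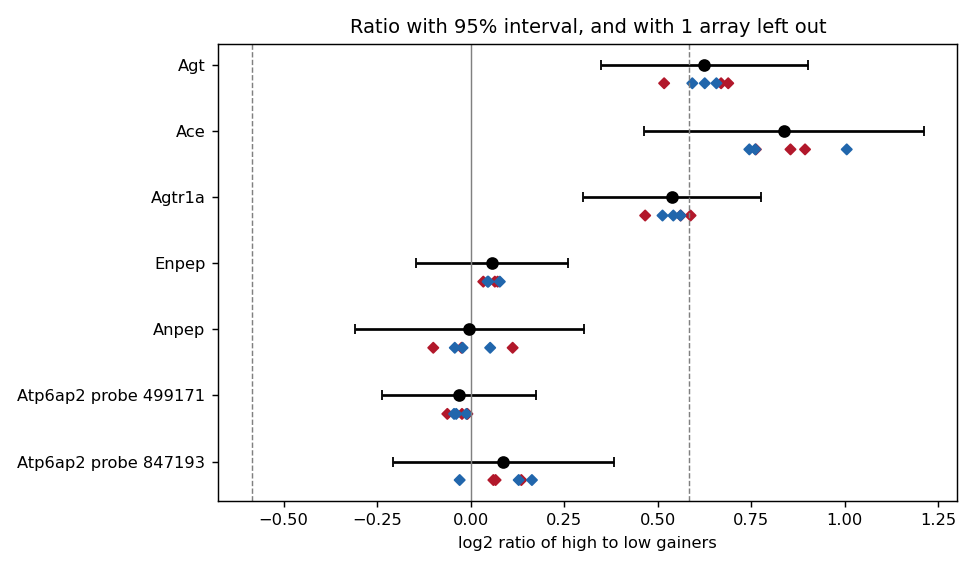
Log2 ratio of high to low gainers for the 7 member probes. Black points with bars are the limma estimates with 95% intervals, diamonds are the ratios with 1 array left out (red for a high-gainer array, blue for a low-gainer array), and dashed lines mark 1.5-fold in each direction. The intervals of Agt, Ace and Agtr1a lie above 0, and those of the other 4 probes include 0.

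At Agt, Ace and Agtr1a the pools did not overlap, so that leaving out 1 array could not bring the ratio to 0 or below. In the fits that left out 1 array the log2 ratio was 0.52 to 0.69 for Agt, 0.75 to 1.01 for Ace and 0.47 to 0.59 for Agtr1a. The adjusted p from limma in these fits was 0.0255 to 0.0515 for Agt and 0.0274 to 0.0435 for Agtr1a. For Ace it was 0.00440 to 0.0549, and the fit that left out the first low-gainer array was the only 1 of these 6 in which a member was called. When each array was centered on the mean level of the adipocyte markers, which shifted every log2 ratio by -0.18, Agt was at 0.45, Ace at 0.66 and Agtr1a at 0.36. The split of all calls then moved from 396 higher and 632 lower to 161 higher and 976 lower. Of these 17 tested markers 2 were themselves called higher in the main fit, Lep among them. Their median log2 ratio there was 0.087, so that this centering is not a neutral reference.

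The rank of a signal within its array does not depend on the scale of that array, but it depends on which probes were blank. Between 18018 and 20605 probes had a value on an array. For Agt the third high-gainer array had a higher signal than the first (7497 against 5912) but a lower percentile. A percentile gives the share of the probes with a value on that array that lie below it, and it sets no gene above another, because probes differ in their response. The probe of Agt lay at the percentiles 43.2, 39.0 and 40.6 in high gainers and 33.7, 29.9 and 32.2 in low gainers. That of Ace lay at 49.9, 41.7 and 39.9 against 38.4, 26.5 and 30.3. The pools were separate in rank as they were in signal. Agtr1a was in the upper part of both pools, with a mean percentile of 86.7 in high gainers and 82.4 in low gainers. Enpep had mean percentiles of 92.4 and 92.1, and Anpep of 28.6 and 29.2. The probes of Atp6ap2 had 68.9 and 69.5 for probe 499171 and 67.4 and 66.4 for probe 847193. The pools overlapped in rank at all 4 of these probes.

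**Figure D3:**
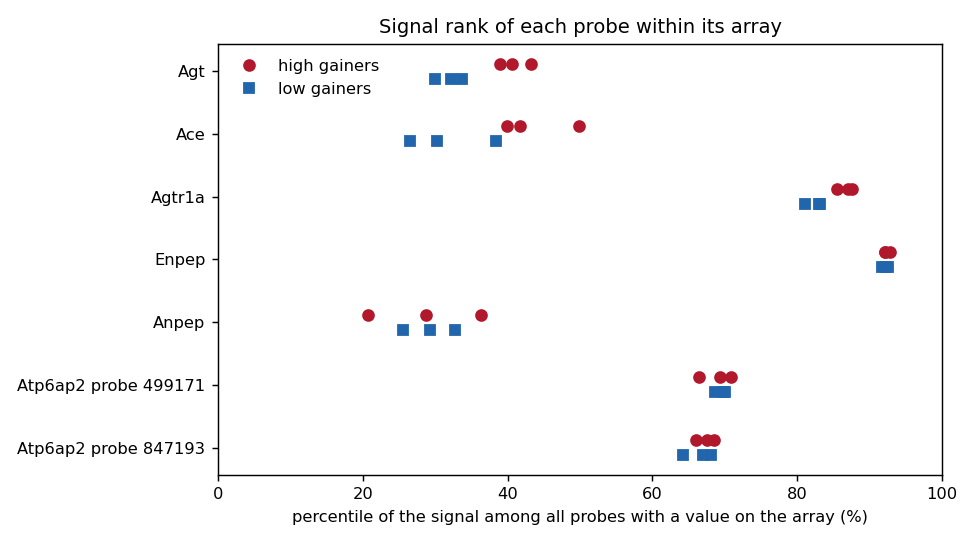
Percentile of each member probe's signal among all probes with a value on the same array, for the 3 high-gainer arrays (red circles) and the 3 low-gainer arrays (blue squares). The ranks of Agt, Ace and Agtr1a are separate between the pools, and those of the other probes overlap.

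Of 21 other genes of the renin-angiotensin pathway, 11 were tested. None was called in either direction by limma or selected by the unadjusted test of the methods. Of the 11, 2 had an unadjusted limma p under 0.05 with the higher signal in high gainers, which 17.4% of all tested probes had. The median log2 ratio of the 11 was 0.14, where that of all tested probes was 0.027. With the centering on adipocyte markers it was -0.040, where that of all tested probes was -0.15. The smallest adjusted p in this list belonged to Mme, the membrane peptidase neprilysin, which cuts angiotensins and natriuretic peptides. Its signal was 15243, 14749 and 13895 in high gainers and 10032, 10138 and 12072 in low gainers (log2 ratio 0.45, adjusted p = 0.0311 from limma). The next was Thop1, thimet oligopeptidase, at a log2 ratio of 0.28 (adjusted p = 0.118 from limma). Both lay higher on every high-gainer array. The other angiotensin receptors Agtr1b and Agtr2 and the receptor Mas1 were blank on all 6 arrays, as were the protease Ctsg and Cltrn. A blank is a probe without a value and sets no level. Renin (Ren1 and Ren2), Mrgprd and Mcpt4 had no probe under their names and were not analysed here.

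The other aminopeptidases of the M1 family, to which Enpep, Anpep and Lnpep belong, were not called either. Of 8 genes, 5 were tested, none passed limma, the unadjusted test of the methods or an unadjusted limma p of 0.05, and the log2 ratios ran from 0.034 to 0.23 with a median of 0.057. With the centering on adipocyte markers this median was -0.12, where that of all tested probes was -0.15. The smallest adjusted p were those of Rnpepl1 (log2 ratio 0.23, adjusted p = 0.241 from limma) and of Erap1, which trims peptides in the endoplasmic reticulum (log2 ratio 0.12, adjusted p = 0.420 from limma).

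Downstream of the receptor, 20 of 26 listed genes were tested, 3 were called lower in high gainers and none was called higher by limma, with a median log2 ratio of -0.057. Of these 20 genes, 7 had an unadjusted limma p under 0.05 with the higher signal in high gainers and 7 with the lower signal. Of all tested probes, 17.4% and 13.6% had such a p in these directions. The unadjusted test of the methods selected 1 of the 20 genes as higher and 4 as lower. Arhgef1, an activator of RhoA that couples to the receptor in vascular smooth muscle and is also abundant in leukocytes, had a signal of 17899, 15488 and 14563 in high gainers and of 32232, 32253 and 32500 in low gainers. It was 2.03-fold lower in high gainers (log2 ratio -1.02, adjusted p = 0.000908 from limma). Ncf1, a subunit of the phagocyte NADPH oxidase, had a signal of 18087, 19098 and 17990 against 33673, 32481 and 32299. It was 1.78-fold lower (log2 ratio -0.84, adjusted p = 0.000927 from limma). Rgs2, which ends signaling by Gq proteins, was at 9788, 11025 and 9994 against 19181, 16054 and 16104. It was 1.66-fold lower (log2 ratio -0.73, adjusted p = 0.00492 from limma). The calls of Arhgef1 and Ncf1 held in all 6 fits with 1 array left out, and that of Rgs2 was lost in all 6, with an adjusted p from limma of up to 0.0298 without high gainers replicate 1. In the same pool, 11 of 13 tested markers of B and T lymphocytes were called lower, with summed signals of 213508 to 232026 on the high-gainer arrays against 667678 to 713636 on the low-gainer arrays. Their part in the lower signals of Arhgef1, Ncf1 and Rgs2 was not tested.

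**Figure D4:**
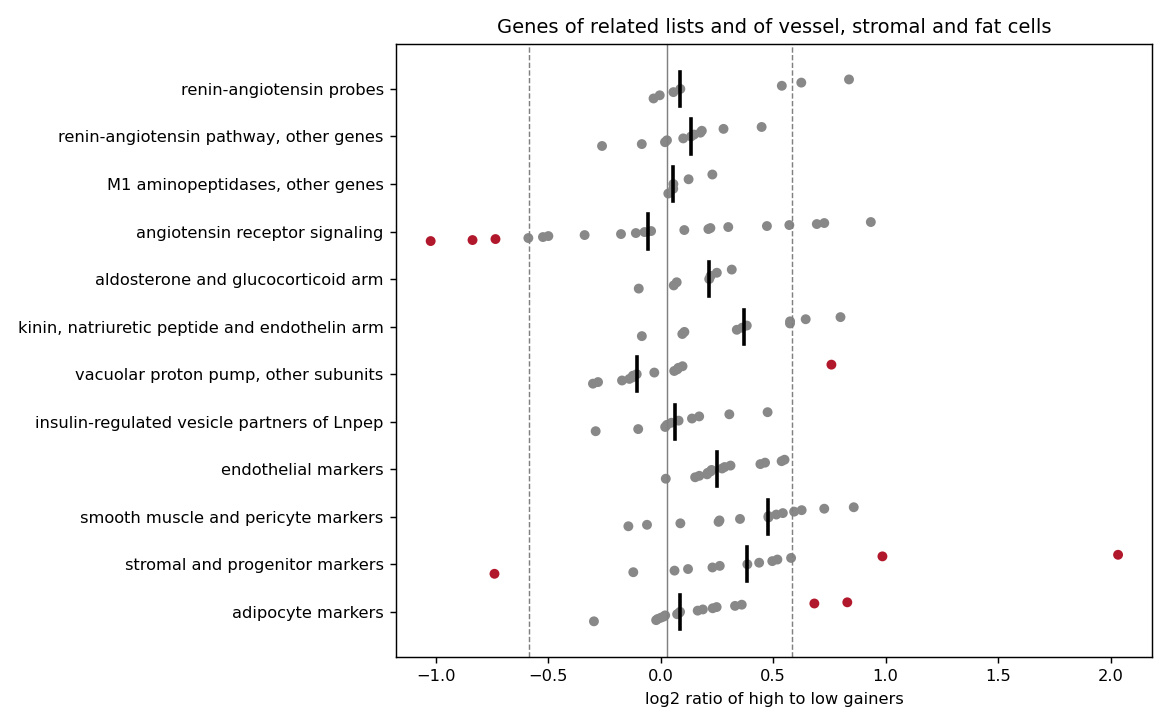
Log2 ratio of high to low gainers for the tested genes of the related lists and of 4 marker lists, with 1 point per gene and 1 per probe in the top row. Red points passed the adjusted p and fold limits, gray points did not, black bars are list medians, the solid line is the median of all tested probes (0.027) and dashed lines mark 1.5-fold. The median is 0.48 for smooth muscle and pericyte markers and -0.057 for receptor signaling.

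Angiotensin II is also known as a stimulus of aldosterone release. Of 17 genes of the aldosterone and glucocorticoid arm, 7 were tested and none was called by limma or selected by the unadjusted test of the methods. Of the 7, 1 had an unadjusted limma p under 0.05 with the higher signal in high gainers, which 17.4% of all tested probes had. The median log2 ratio of the 7 was 0.22. This median was 0.033 without low gainers replicate 1. With the centering on adipocyte markers it was 0.040, where that of all tested probes was -0.15. Hsd11b1, which reactivates glucocorticoids inside adipocytes, had a log2 ratio of 0.32 (adjusted p = 0.111 from limma), and Nr3c1, the glucocorticoid receptor, had 0.22 (adjusted p = 0.249 from limma).

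Of 24 genes of the kinin, natriuretic peptide and endothelin arm, 10 were tested and none was called by limma. Of the 10, 6 had an unadjusted limma p under 0.05 with the higher signal in high gainers, which 17.4% of all tested probes had. The median log2 ratio of the 10 was 0.37. Xpnpep2, a membrane peptidase that breaks down bradykinin as Ace does, had a signal of 7865, 7475 and 8868 in high gainers and of 5651, 4255 and 4112 in low gainers. Its log2 ratio was 0.80 and its adjusted p from limma was 0.0106, just above the limit, and without low gainers replicate 1 it was called with an adjusted p of 0.00489. The probe of Xpnpep2 is dim. Ednrb, an endothelin receptor of endothelial cells, had a signal of 22269, 19701 and 21111 against 14559, 15024 and 12793. Its log2 ratio was 0.58 (adjusted p = 0.0108 from limma). Both genes lay higher on every high-gainer array, as did Kng1, Ece1, Ece2 and Edn1, where 20.3% of all tested probes did. The unadjusted test of the methods selected 2 genes of this arm as higher, Xpnpep2 and Kng1, and did not select Ednrb.

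Atp6ap2 is also an accessory protein of the vacuolar proton pump, and 13 of the other 19 listed pump entries were tested. The entry Atp6v0a3 is another name of the listed Tcirg1 and was counted without a probe. One pump gene was called higher, Atp6v0e2, a small membrane subunit. Its signal was 66967, 64752 and 68823 in high gainers and 42162, 37073 and 39374 in low gainers, 1.69-fold higher (log2 ratio 0.76, adjusted p = 0.00206 from limma). The call was lost without high gainers replicate 1, where the adjusted p from limma was 0.0148, and without low gainers replicate 3, where it was 0.0123. The median of the list was -0.11, and the next smallest adjusted p was that of Tcirg1 (log2 ratio -0.28, adjusted p = 0.105 from limma).

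Vessels and stroma express Ace and Agtr1a, and adipocytes and stromal cells express Agt, so that the markers of these cells are given beside them. No endothelial marker was called by limma or selected by the unadjusted test of the methods in either direction. Of 14 tested, 7 had an unadjusted limma p under 0.05 with the higher signal in high gainers, which 17.4% of all tested probes had. The summed signal of the endothelial markers was 1014607 to 1108785 on the high-gainer arrays against 876834 to 914440 on the low-gainer arrays. Of the defining endothelial markers, Vwf had no value on any low-gainer array and Erg had a value on 1 of them, so that neither was tested. No smooth muscle or pericyte marker was called by limma either, but 1 was selected as higher by the unadjusted test of the methods, 11 of 14 had such a limma p, and the summed signals were 493381 to 520078 against 367186 to 376730. The arrays of the pools were separate for both sums. Of 13 stromal and progenitor markers 2 were called higher and 1 lower, with summed signals of 5470009 to 6450943 against 4647331 to 5589442, which overlap. An unadjusted limma p under 0.05 was found for 8 of the 13 with the higher signal in high gainers and for 1 in the other direction. Of all tested probes, 17.4% and 13.6% had such a p in these directions. The median log2 ratio of the stromal and progenitor markers was 0.39. Clec3b, which encodes tetranectin, had the largest ratio of these (log2 ratio 2.03, adjusted p = 0.00138 from limma). Of 17 adipocyte markers 2 were called higher, with summed signals of 11083853 to 11923596 against 10227292 to 10791866, and Lep, the gene of leptin, had a log2 ratio of 0.83 (adjusted p = 0.00350 from limma), and 4 of the 6 fits without 1 array lost its call. The part of these cells in the signals of Agt, Ace and Agtr1a was not tested.

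Of the markers of other cell types tested, some were called lower in high gainers and none was called higher by limma. For comparison, an unadjusted limma p under 0.05 was found for 17.4% of all tested probes with the higher signal in high gainers and for 13.6% with the lower. Of 11 skeletal muscle markers 9 were called lower in high gainers (median log2 ratio -0.85), among them the myoglobin gene Mb at -1.29 (adjusted p = 0.00209 from limma). Of 8 tested epithelial markers 4 were called lower, 7 had a ratio below 0 and 5 had an unadjusted limma p under 0.05 in that direction (median -1.24), with the keratin gene Krt18, a dim probe, at -2.65 (adjusted p = 0.000309 from limma). The epithelial markers Epcam, Krt5 and Esrp1 had a value on all 3 low-gainer arrays but on at most 1 high-gainer array and were not tested. Of 8 tested markers of brown and beige adipocytes 7 had a ratio below 0, 6 had an unadjusted limma p under 0.05 in that direction, the unadjusted test of the methods selected 2 as lower and 1 was called lower by limma, Ucp1, the uncoupling protein of brown fat, at a log2 ratio of -2.77 (adjusted p = 0.000174 from limma), and the list median was -0.54. The lymphocyte list had a median of -1.69 and held Cd22, a dim probe, at -2.05 (adjusted p = 0.00131 from limma). None of 11 myeloid markers (median 0.13) was called by limma, where 4 had an unadjusted limma p under 0.05 with the higher signal in high gainers and 1 in the other direction, and the unadjusted test of the methods selected 1 as higher. None of 5 mast cell markers (median -0.083) passed either test or had such a p.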

How the data were processed

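RNA of inguinal fat was measured on 6 arrays, 3 of each pool. Per the labels and the methods, the authors made DIG-labeled cRNA, read it by chemiluminescence on a one-color array of mouse genes, and quantile normalized the signal. The deposited intensities are linear, not log values. Cells without a value are blank. The methods filter on signal to noise (at least 3) and a quality flag, and the sources used here do not state whether this filter made the blanks. Groups came from the sample titles.

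Probes were named from the platform annotation, in which 14411 probes had 1 symbol, 247 had several, which named no gene here, and 18354 had none. Gene identifiers matched 14402 of them to current symbols in RefSeq (GRCm38.p6). In lists, a gene is represented by its probe of highest mean. The sources used here do not state a genome build for the probes, so they have no coordinates, and the promoter windows are those of RefSeq.

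The 15821 probes complete on all 6 arrays were log2 transformed, fitted with limma 3.58.1 in R 4.3.3 (lmFit and eBayes, no further normalization) and called at an adjusted p of 0.01 and a 1.5-fold limit. The test of the methods, with an unadjusted p of 0.01, was run on the same values. The fit was tested on simulated data. The members and the 17 gene lists were chosen with earlier results of these data known. The named genes are every member probe, up to 3 called genes of each list in each direction or else the 2 of smallest adjusted p, the called marker of largest ratio in each marker list, and the 2 nearest profiles of each member. Genes named as blank on some or all arrays, or as without a probe, were chosen after their values were seen, and 1 listed gene is not reported here. The alternatives were a second quantile normalization, 2 centerings, filters on dim probes, an offset, a variance trend, other limits, a replicate block, the test of the methods on log2 and linear values, probes with at least 2 values per pool, the mean over the probes of a gene, and each array left out.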

Additional observations from a re-analysis of the deposited data

How the results depend on the processing

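Across the alternatives that could be computed the log2 ratio was 0.41 to 0.69 for Agt, 0.55 to 1.01 for Ace and 0.36 to 0.59 for Agtr1a. Several of them, such as other limits, the replicate block and the variance trend, cannot change a ratio. Leaving out 1 array could not change the sign at these 3 probes, because the pools did not overlap there. Whether a member passed the limits depended on the test. The count of members called higher was 0, but 1 with an intensity trend and robust estimation (Ace, 0.84, adjusted p = 0.00623 from limma), 2 at an adjusted p of 0.05 (Agt, 0.63, and Ace, 0.84), 1 by the unadjusted test of the methods on log2 values (Agt, 0.63), 1 by that test on linear values (Ace, 0.82) and 0 to 1 with 1 array left out (Ace, 0.75 to 1.01, called without low gainers replicate 1). The count of members called lower was 0 throughout. An offset at the 10th percentile of the signals (2848) brought Agt to 0.41 and Ace to 0.55, and the filters on dim probes removed Agt, Ace and Anpep from the test, so that they gave no value there.

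The probes with ratios near 0 changed sign. Centering on the adipocyte markers, which shifts every log2 ratio by -0.18, turned Enpep to -0.12, probe 847193 of Atp6ap2 to -0.088 and Erap1 to -0.051. Anpep was 0.0044 on linear values and -0.10 to 0.11 with 1 array left out, probe 847193 was -0.029 to 0.16 with 1 array left out, and the mean over both probes of Atp6ap2 was 0.028, where probe 499171 alone gave -0.031. The cause of the changes with 1 array left out was not tested.

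Array numbers did not pair the samples (r = 0.04, -0.11 and 0.27 between deviations of arrays of the same number). Between high-gainer and low-gainer arrays of different number r was -0.34 to 0.36, and the cause of these values was not tested. With the array number as a replicate block the log2 ratios were the same and the adjusted p from limma was 0.0348 for Agt, 0.0106 for Ace and 0.0378 for Agtr1a, the count of all calls fell to 173 higher and 446 lower, and the calls of Rgs2 (0.0197) and Atp6v0e2 (0.0103) were lost.

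In the lists, receptor signaling had 0 to 2 genes called higher and 1 to 4 lower across the alternatives, the kinin arm 0 to 2 higher, the pump 0 to 1 higher and smooth muscle and pericyte markers 0 to 4 higher. With 1 array left out, skeletal muscle markers had 4 to 7 genes called lower (4 when low gainers replicate 3 or either of high gainers replicates 1 and 2 was left out), adipocyte markers 0 to 2 higher (0 without the same arrays) and stromal markers none lower in any of the 6 fits, and the calls over all probes were 105 higher and 368 lower without high gainers replicate 1 and 319 and 493 without low gainers replicate 1. All probes together gave 46 calls higher and 111 lower by the test of the methods after adjustment, and 98 and 402 with a 2-fold limit. With adipocyte centering the medians of the other pathway genes, the M1 family and the Lnpep partners were -0.040, -0.12 and -0.11. That of all tested probes was then -0.15. The receptor signaling median was 0.050 without high gainers replicate 3.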

Other observations

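Lnpep itself had no named probe, but 10 of 12 listed genes of the insulin-regulated vesicles in which its product travels were tested. None was called by limma or selected by the unadjusted test of the methods in either direction. Of the 10, 2 had an unadjusted limma p under 0.05 with the higher signal in high gainers and 1 in the other direction. Of all tested probes, 17.4% and 13.6% had such a p in these directions. The median log2 ratio of the 10 was 0.064. Lrp1, an endocytic receptor found in these vesicles, had a signal of 35924, 41515 and 38267 in high gainers and of 27376, 28755 and 26967 in low gainers (log2 ratio 0.48, adjusted p = 0.0161 from limma). Tbc1d1, a Rab regulator, was at 7177, 7313 and 7514 against 9667, 8326 and 8926 (log2 ratio -0.29, adjusted p = 0.0864 from limma). The pools did not overlap at either gene.

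The profile of each member over the 6 arrays was set against those of about 6520 other named and brighter probes, by the root mean square difference of log2 values centered on each probe's mean. Nearest to Agt were Gstt3 (0.042), a glutathione transferase, and Nepn (0.061). Nearest to Ace were Sfrp4 (0.092), a secreted inhibitor of Wnt signaling, and Abat (0.095), which breaks down GABA. Like Ace, both had their highest low-gainer value on the first array, with Sfrp4 at 43818, 33331 and 33663 and Abat at 33559, 26198 and 26022. Both were chosen for nearness to the profile of Ace, so that this likeness is not independent of the choice. Nearest to Agtr1a were Cyp51 (0.029), an enzyme of cholesterol synthesis, and Tspan17 (0.037), a tetraspanin. Nearest to Enpep were Rad21 (0.014) and Ei24 (0.025), to Anpep Wrn (0.027) and Qars (0.042), to probe 499171 of Atp6ap2 Usp39 (0.0096) and Nde1 (0.016), and to probe 847193 Fasn (0.031), the fatty acid synthase, and Gstp1 (0.031). These distances are descriptions over 6 arrays from a pair of RNA pools.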
